A study of Homo sapiens with 32 samples.

Results

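Autophagy and lysosome genes were followed in RPE-1 cells, a telomerase-immortalised line from human retinal pigment epithelium, as the cells left serum starvation. The members were 42 genes listed by symbol: 25 genes of the autophagy machinery, 2 transcription factors that act on lysosomal genes, 4 lysosomal membrane proteins, 9 lysosomal hydrolases and 2 other lysosomal proteins. The count table of 19023 genes held 39 of them, and BECN1, WIPI1 and NEU1 were not analysed here. All cells had been starved of serum for 18 h. They were then given serum and collected at 0 h (starved, no serum returned), 5 h, 10 h or 15 h, with 4 biological replicates at each time. Each time had 4 RNA-seq libraries and 4 Ribo-seq libraries, whose reads are the footprints that translating ribosomes protect on the mRNA. All later groups had serum, so the return of serum and the hours passed cannot be told apart. The labels do not say whether a footprint library and an RNA library came from the same culture.

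Autophagy encloses cytoplasm in a double membrane, the autophagosome, which fuses with lysosomes, where hydrolases digest the contents. A kinase complex around ULK1 and a lipid kinase complex with ATG14 start the membrane, a conjugation chain attaches small ATG8 proteins to it, and receptors such as SQSTM1 bring cargo to those proteins. The factors TFEB and TFE3 are known to raise transcription of lysosomal and autophagy genes when they are in the nucleus, and the growth-factor and nutrient kinase mTORC1 keeps them in the cytoplasm.

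RNA libraries held 595851 to 1107470 counts and footprint libraries 2851423 to 9901322. The replicate 3 RNA library at 0 h stood slightly apart, with a median Spearman correlation to its own group of 0.913, against 0.938 to 0.967 for the other RNA libraries. Where leaving out the libraries of 1 replicate number ended a call against 0 h that is given for a gene, this is said beside it. Of the members, 32 passed the filter on low counts in RNA and 38 in footprints. MAP1LC3A, MAP1LC3B, ULK1, ATG9A, MCOLN1 and TFEB were tested in footprints only. CLN3, a lysosomal membrane protein, had a count of 0 in all 32 libraries. For counting error alone, that allows up to 0.0266 CPM (library counts scaled to a common total) over the footprint libraries together. The annotation and the treatment of shared reads are not given in the sources used here. Whether CLN3 was absent or its reads were not counted therefore cannot be told. Epithelial keratins KRT8 and KRT18 were abundant, with time means of 564 to 968 CPM in RNA, while the epithelial cadherin CDH1 reached at most 0.263 CPM. Of 9 markers of differentiated pigment epithelium, TTR was at 0, and RPE65, TYR and PMEL had time means of at most 1.04 CPM in either assay. In bulk libraries of this kind, fewer cells with a transcript and less of it per cell cannot be told apart.

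The members took a falling share of each library. In footprints they held 3.14 ± 0.216% of counts at 0 h, 2.01 ± 0.180% after 5 h, 1.44 ± 0.0954% after 10 h and 1.09 ± 0.0489% after 15 h (SD, n = 4 at each time). In RNA the share was 1.61 ± 0.207% at 0 h, 1.24 ± 0.0554% after 5 h, 0.883 ± 0.107% after 10 h and 0.644 ± 0.0547% after 15 h. PSAP, the precursor of the saposins that help enzymes degrade sphingolipids, made up most of this. Without PSAP the footprint share was 1.14 ± 0.0504%, 0.741 ± 0.0423%, 0.565 ± 0.0312% and 0.471 ± 0.0142% at 0, 5, 10 and 15 h, and the lowest library at each of 0, 5 and 10 h stood above the highest library of the next time.

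**Figure D1:**
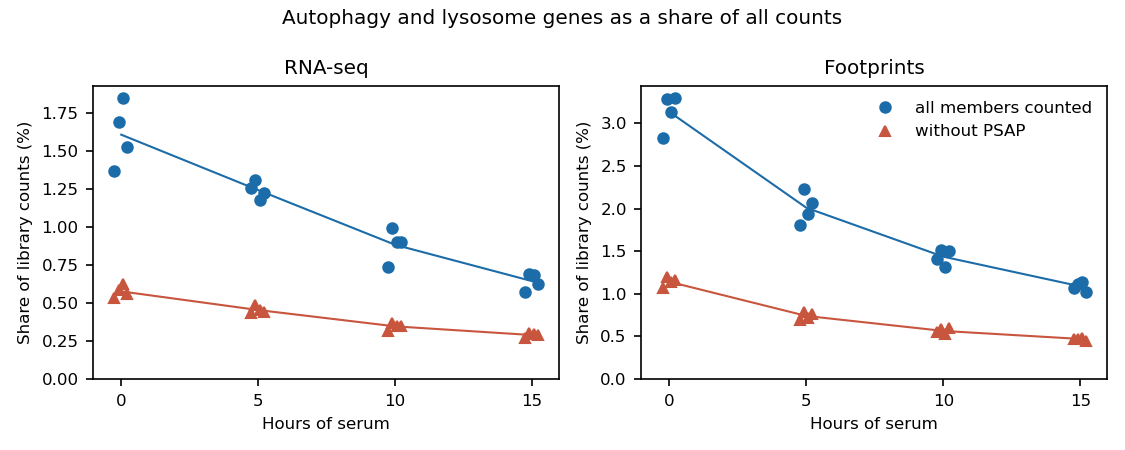
Share of all library counts (percent) taken by the autophagy and lysosome genes, by hours of serum, for RNA-seq (left) and footprints (right). Circles are libraries with all members counted, triangles the same without PSAP, and lines join the means of 4 libraries. The footprint share falls to 1.09% at 15 h, against 3.14% at 0 h.

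Most members were lower after serum. A gene was called when the Benjamini-Hochberg adjusted p of edgeR's quasi-likelihood test, taken across the whole assay, was under 0.05. At 15 h against 0 h, 22 of the 32 members tested in RNA fell and 2 rose, with a median log2 change of -0.84, while 50.9% of all genes were called (25.4% lower and 25.4% higher) with a median of -0.04. In footprints 31 of 38 members fell and 5 rose, with a median of -0.77, against 79.7% of all genes called (39.6% lower and 40.1% higher) and a median of -0.01. Among the members called, lower ones outnumbered higher ones, whereas the calls over all genes were split evenly. Whether the list differs from other genes was not tested.

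The decline was spread over the time course. At 5 h against 0 h, 7 of 32 members fell and 2 rose in RNA, where 16.7% of all genes were lower and 35.9% were called, and 25 of 38 fell and 5 rose in footprints, where 40.5% were lower and 75.7% were called. At 10 h against 0 h, 19 members fell and 1 rose in RNA (21.5% of all genes lower, 44.8% called), and 28 fell and 4 rose in footprints (39.0% lower, 78.4% called). All 3 comparisons share the 0 h libraries. The member medians were -0.29 at 5 h and -0.58 at 10 h in RNA, and -0.27 and -0.63 in footprints. Of the 32 members tested in both assays at 15 h, 22 were lower in both, 2 were higher in both, 7 were called in footprints only and none was called in opposite directions. At that time 50.9% of all genes were called in RNA and 79.7% in footprints. The overlap of the 2 assays over all genes was not counted, so this split is not read as a trait of the members. The RNA count at 5 h is the least stable of these: it was 4 without the replicate 4 libraries. The members called in RNA at 5 h were also a smaller share of their list than the genes called were of all genes.

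Markers of several cell types moved over the same hours. Summed over the 9 pigment epithelium markers, footprint libraries held 101 to 121 CPM at 0 h, 35.1 to 37.6 after 5 h, 68.8 to 77.9 after 10 h and 57.7 to 64.5 after 15 h, and RNA libraries held 74.7 to 83.7, 21.6 to 37.7, 29.7 to 59.4 and 33.6 to 43.9 CPM at the same times. All 5 of these markers tested in footprints (BEST1, MERTK, MITF, OTX2 and RLBP1) were lower at 15 h against 0 h, with log2 changes of -2.86 for RLBP1 to -0.43 for MITF, and 2 of the 3 tested in RNA were lower (MERTK at -2.19 and OTX2 at -1.53). Being called was common at that time: 79.7% of all genes were called in footprints (39.6% lower) and 50.9% in RNA (25.4% lower). The 4 fibroblast markers summed to 63.7 to 78.4 footprint CPM at 0 h, 33.9 to 45.7 after 5 h, 15.6 to 19.7 after 10 h and 9.52 to 11.5 after 15 h, and to 24.2 to 41.9, 10.4 to 28.1, 5.77 to 12.3 and 2.80 to 9.45 CPM in RNA. PDGFRA, a growth-factor receptor, made up most of that sum at 0 h and fell, with -3.64 ± 0.12 in footprints and -3.06 ± 0.39 in RNA at 15 h (adjusted p = 3.64e-27 and 1.05e-06), and COL1A1 fell in footprints (-1.08 ± 0.16), while COL1A2 and DCN had at most 1.48 CPM.

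The blood and macrophage markers summed to 79.0 to 101 footprint CPM at 0 h, 94.0 to 122 after 5 h, 97.5 to 111 after 10 h and 87.3 to 92.5 after 15 h, most of it CD68, itself a lysosomal protein. In RNA they summed to 13.5 to 32.8, 17.3 to 22.4, 9.22 to 23.1 and 15.5 to 20.6 CPM. HBB and HBA1 were at 0, PTPRC, CD14 and AIF1 were below 1 CPM, CSF1R had 3.55 to 8.41 footprint CPM, and TYROBP was not analysed here. Neither CD68 nor CSF1R was called in footprints at 15 h (adjusted p = 0.575 and 0.223). Of 5 keratin, cadherin and vimentin genes (KRT8, KRT18, CDH1, CDH2 and VIM), all 4 tested in footprints were higher at 15 h. Of all genes, 40.1% were higher there. The 5 summed to 11576 to 12437 footprint CPM at 15 h, against 3764 to 4246 CPM at 0 h. VIM made up most of that sum, with time means of 2565 to 10500 CPM. KRT8 had 378 to 734, KRT18 575 to 898, CDH2 579 to 1321 and CDH1 at most 0.0682 footprint CPM. In RNA 1 of the 5 genes rose and 2 fell, with sums of 6009 to 8441 CPM at 15 h, against 8209 to 9248 CPM at 0 h. Over all genes 50.9% were called in RNA at 15 h. The part of these markers in the members' changes was not tested.

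**Figure D2:**
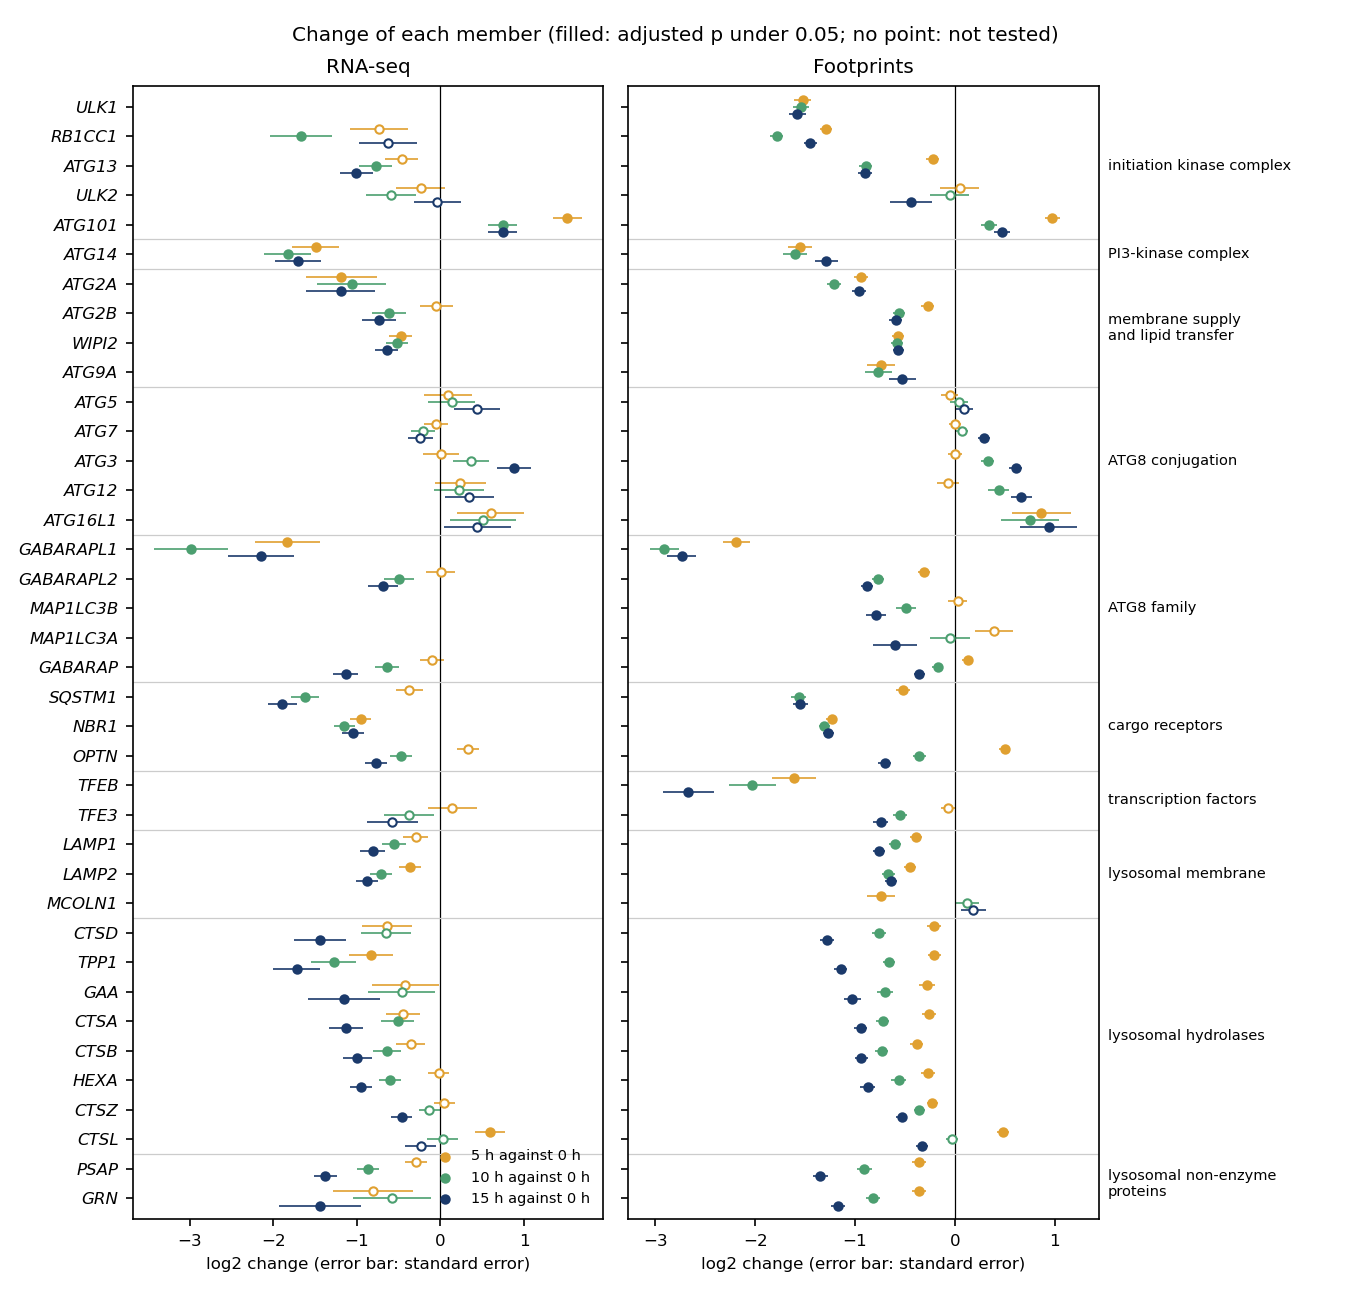
log2 change of each member against 0 h, at 5, 10 and 15 h of serum, in RNA-seq (left) and footprints (right), grouped by role. Points are fitted changes, bars their standard errors, filled points have an adjusted p under 0.05, and members not tested in an assay have no point there. In footprints GABARAPL1, NBR1, ULK1, RB1CC1 and ATG14 sit far to the left already at 5 h, hydrolases lie further left at each later time, and no conjugation gene has a filled point left of 0.

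The initiation kinase complex fell in 4 of its 5 genes in footprints at 15 h and rose in 1. In that comparison 79.7% of all genes were called (39.6% lower and 40.1% higher). ULK1 (ENSG00000177169, chr12:131894622-131923150 on GRCh38.p14, the build of all places given), the kinase that starts autophagosome formation, had 69.8, 64.4, 57.1 and 59.1 footprint CPM at 0 h, 22.4, 19.9, 21.98 and 21.6 at 5 h, 22.8, 23.02, 19.2 and 20.05 at 10 h and 22.1, 20.6, 23.1 and 17.5 at 15 h. Every library after serum was below every 0 h library, and the 3 later times overlapped. Its log2 change, given here and for all genes with the standard error of the fit, was -1.53 ± 0.09 at 5 h (adjusted p = 3.19e-19) and -1.58 ± 0.08 at 15 h (adjusted p = 6.45e-20), with -0.02 ± 0.09 between 5 and 10 h (adjusted p = 0.897). ULK1 RNA was too low for the test, with 13 counts over the 4 libraries at 15 h and 47 at 0 h. When all genes with counts were fitted, its RNA change at 15 h was -1.996 ± 0.49 (adjusted p = 7.10e-04).

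ATG13, a scaffold of the same complex, took a slower course. Its footprints were 78.99, 83.7, 88.9 and 88.8 CPM at 0 h, 78.2, 72.5, 72.4 and 70.6 at 5 h, 47.3, 43.9, 42.8 and 51.2 at 10 h and 42.3, 46.2, 51.03 and 42.5 at 15 h. The 5 h libraries lay just below those at 0 h, and the 10 h and 15 h libraries lay far below both. ATG13 RNA was 49.4, 82.2, 68.4 and 67.7 CPM at 15 h and 110.2, 139, 157 and 135 CPM at 0 h, again without overlap, a log2 change of -1.01 ± 0.20 (adjusted p = 2.39e-04) beside -0.90 ± 0.07 in footprints (adjusted p = 4.66e-15).

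RB1CC1, the large scaffold also called FIP200, fell in footprints to 56.6 ± 2.31 CPM at 5 h, 40.2 ± 3.43 at 10 h and 50.7 ± 3.48 at 15 h, against 138 ± 7.11 at 0 h (SD, n = 4 each). The later rise between 10 and 15 h was also called, at 0.34 ± 0.07 (adjusted p = 1.26e-04). Its RNA was called at 10 h only, at -1.67 ± 0.37 (adjusted p = 0.00124), and the 4 RNA libraries at 0 h spread widely, with 174, 175, 69.3 and 268 CPM. Without the replicate 3 libraries, RB1CC1 RNA was lower at 5 h (adjusted p = 0.0014) and at 15 h (adjusted p = 0.0117) too.

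ATG101, which stabilises ATG13, rose. Its RNA was 75.1, 64.6, 60.6 and 68.8 CPM at 0 h, 189.8, 196, 180.2 and 207 at 5 h, 88.1, 116, 139 and 111 at 10 h and 116, 78.5, 119 and 139.6 at 15 h. All 5 h libraries were above every library of the other times, a log2 change of 1.52 ± 0.17 (adjusted p = 5.25e-07), or 2.86-fold. In footprints the rise at 5 h was 0.97 ± 0.07 (adjusted p = 4.93e-15), and at 15 h it was 0.47 ± 0.08 (adjusted p = 7.22e-07). The other kinase gene, ULK2, had only 3.20 ± 0.390 footprint CPM at 15 h and 4.26 ± 1.18 at 0 h, and its call at 15 h (-0.44 ± 0.21, adjusted p = 0.0495) was lost without the libraries of replicate 2 (adjusted p = 0.135), 3 (0.0586) or 4 (0.354), and in DESeq2 (0.0952).

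ATG14, which directs the lipid kinase complex to sites of autophagosome formation, fell early in both assays. Its RNA was 58.1, 51.9, 51.98 and 64.3 CPM at 0 h, 24.2, 10.03, 21.2 and 25.96 at 5 h, 17.4, 7.69, 20.3 and 18.9 at 10 h and 13.7, 18.7, 12.9 and 22.9 at 15 h. Its footprints were 25.4, 26.98, 24.1 and 27.4 CPM at 0 h, 9.89, 8.45, 8.74 and 8.37 at 5 h, 8.72, 10.3, 7.24 and 7.95 at 10 h and 9.43, 8.65, 11.5 and 12.6 at 15 h. In neither assay did a later library reach the lowest one at 0 h. The log2 change at 5 h was -1.49 ± 0.28 in RNA (adjusted p = 2.21e-04) and -1.55 ± 0.12 in footprints (adjusted p = 9.69e-15).

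The 4 genes of membrane supply and lipid transfer measured here, ATG9A, ATG2A, ATG2B and WIPI2, all fell in footprints at 5, 10 and 15 h. Of all genes, 40.5%, 39.0% and 39.6% were lower at these times. ATG2A, one of the pair of proteins that move lipid into the growing membrane, had 71.01, 69.3, 71.6 and 64.96 footprint CPM at 0 h, 37.1, 38.8, 35.2 and 33.2 at 5 h, 28.4, 31.7, 28.9 and 30.2 at 10 h and 40.9, 34.7, 33.4 and 35.01 at 15 h. All later libraries were below the 0 h libraries, and the 15 h change was -0.96 ± 0.07 (adjusted p = 1.12e-15). ATG2A RNA was sparser, with 6.30, 24.3, 15.5 and 11.5 CPM at 15 h and 20.6, 41.3, 53.4 and 17.9 CPM at 0 h, and the groups overlapped. Its RNA call at 15 h (-1.19 ± 0.42, adjusted p = 0.021) was lost without the replicate 3 libraries (adjusted p = 0.17).

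WIPI2, which reads the lipid made by the ATG14 complex and recruits the conjugation machinery, changed by -0.57 ± 0.06, -0.58 ± 0.06 and -0.57 ± 0.06 in footprints at 5, 10 and 15 h, the smallest adjusted p being 1.25e-11. The multi-pass membrane protein ATG9A changed by -0.74 ± 0.14, -0.77 ± 0.14 and -0.53 ± 0.14 (largest adjusted p = 6.59e-04). ATG2B, the relative of ATG2A, was called at each time in footprints and reached -0.59 ± 0.06 at 15 h (adjusted p = 4.91e-11), with an RNA change of -0.74 ± 0.20 (adjusted p = 0.00456) that was lost without the replicate 4 libraries (adjusted p = 0.127).

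The conjugation genes did not fall. None of ATG3, ATG5, ATG7, ATG12 and ATG16L1 was called lower against 0 h at any time in either assay, and 4 of the 5 rose in footprints at 15 h. In footprints at 15 h, 40.1% of all genes were higher and 39.6% lower. ATG3, the enzyme that passes ATG8 proteins to lipid, had 51.8, 49.7, 48.6 and 51.97 footprint CPM at 0 h, 57.1, 45.2, 48.7 and 49.8 at 5 h, 65.5, 61.9, 63.7 and 61.8 at 10 h and 70.4, 77.2, 79.7 and 78.6 at 15 h. The 0 h and 5 h libraries overlapped, and the 10 h and 15 h libraries were above them. ATG3 RNA was 103, 64.6, 82.3 and 97.2 CPM at 0 h, 100.1, 71.2, 91.8 and 87.6 at 5 h, 147, 92.3, 99.9 and 105 at 10 h and 208, 105, 147 and 177 at 15 h, and the 15 h libraries all exceeded the 0 h libraries. The change at 15 h was 0.88 ± 0.21 in RNA (adjusted p = 0.00128) and 0.61 ± 0.07 in footprints (adjusted p = 1.21e-10).

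ATG12, the ubiquitin-like partner of ATG5, rose in footprints by 0.44 ± 0.11 at 10 h and 0.67 ± 0.10 at 15 h (adjusted p = 2.77e-07), and ATG7, the activating enzyme for both conjugation systems, by 0.29 ± 0.06 at 15 h (adjusted p = 5.05e-05). ATG16L1, which places the ATG12-ATG5 conjugate on the membrane, was counted over only 109 bases and gave 5.06, 3.395, 2.66 and 3.001 footprint CPM at 15 h and 1.48, 1.27, 1.52 and 2.44 footprint CPM at 0 h, without overlap (0.94 ± 0.29, adjusted p = 0.00319). ATG5 had 34.4 ± 2.42 footprint CPM at 15 h and 32.4 ± 3.17 at 0 h, a change of 0.09 ± 0.09 that was not called (adjusted p = 0.334). In RNA only ATG3 of these 5 was called at any time, while ATG5 RNA (0.44 ± 0.27 at 15 h, adjusted p = 0.194) was called with replicate number as a block (adjusted p = 0.0455).

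All 5 ATG8 family genes, whose products coat the autophagosome and hold cargo receptors, were lower in footprints at 15 h, by very different amounts. Of all genes, 39.6% were lower there. GABARAPL1 (ENSG00000139112, chr12:10212877-10223128) had the largest fall of the members tested at 15 h in both assays. Its footprints were 31.1, 26.98, 33.4 and 28.9 CPM at 0 h, 7.78, 4.31, 7.04 and 6.85 at 5 h, 4.80, 4.17, 3.68 and 3.15 at 10 h and 6.21, 4.600, 4.76 and 3.13 at 15 h. Its RNA was 20.6, 36.01, 23.1 and 31.4 CPM at 0 h, 5.18, 8.02, 9.42 and 7.57 at 5 h, 2.05, 3.84, 0 and 6.31 at 10 h and 9.45, 2.80, 10.3 and 3.12 at 15 h. No library after serum reached the level of any 0 h library. The log2 change was -2.19 ± 0.13 at 5 h and -2.74 ± 0.14 at 15 h in footprints (adjusted p = 5.18e-18 and 1.83e-20), the second being 6.66-fold lower. In RNA it was -2.15 ± 0.40 at 15 h (adjusted p = 1.16e-04).

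GABARAP, its close relative, had 143, 129, 133 and 126 RNA CPM at 0 h, 102, 148, 118 and 124 at 5 h, 77.8, 78.8, 99.9 and 86.5 at 10 h and 58.8, 57.00, 58.1 and 67.7 at 15 h. Its footprints were 158, 190.2, 182 and 179 CPM at 0 h, 189.9, 205, 189.8 and 194 at 5 h, 159, 161, 149 and 162 at 10 h and 138, 132, 144 and 142 at 15 h. The RNA libraries at 15 h lay far below those at 0 h, and the footprint libraries at 15 h lay below those at 0 h by a smaller margin. The RNA change at 15 h was -1.13 ± 0.15 (adjusted p = 1.93e-06) and the footprint change -0.36 ± 0.06 (adjusted p = 2.64e-07). At 5 h the footprints were 0.13 ± 0.05 (adjusted p = 0.0298), a call lost without the replicate 1 (adjusted p = 0.13) or replicate 4 libraries (0.062).

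GABARAPL2 had 117, 133, 124 and 128 footprint CPM at 0 h, 108, 94.2, 96.6 and 106 at 5 h, 80.7, 70.1, 71.8 and 72.7 at 10 h and 67.9, 68.9, 66.2 and 69.4 at 15 h. Its RNA was 47.3, 31.8, 43.9 and 40.6 CPM at 15 h and 62.99, 66.7, 75.1 and 56.8 CPM at 0 h. Neither pair of groups overlapped, and the 15 h change was -0.88 ± 0.06 in footprints (adjusted p = 1.60e-16) and -0.68 ± 0.18 in RNA (adjusted p = 0.0032, or 0.0523 without the replicate 2 libraries).

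MAP1LC3B, the LC3 protein used most as an autophagosome marker, had 18.05, 21.5, 22.9 and 22.1 footprint CPM at 0 h, 20.7, 21.5, 23.1 and 21.9 at 5 h, 14.5, 16.2, 14.2 and 16.4 at 10 h and 12.7, 11.4, 12.3 and 13.4 at 15 h. The 5 h libraries overlapped the 0 h libraries, and the 15 h libraries were below them (-0.79 ± 0.10, adjusted p = 8.51e-09). MAP1LC3B2 is a near-identical copy, and how the authors assigned shared reads is not given in the sources used here, so this gene's values are uncertain. MAP1LC3A was sparsely counted, with 3.85, 5.31, 5.76 and 3.74 footprint CPM at 0 h, 6.46, 5.30, 5.92 and 6.85 at 5 h, 4.93, 3.82, 4.54 and 5.14 at 10 h and 1.61, 2.85, 3.98 and 3.25 at 15 h. Its 15 h group overlapped the 0 h group, and its call (-0.60 ± 0.22, adjusted p = 0.0115) was lost without the replicate 2 libraries (adjusted p = 0.0744).

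Genes were counted over part of their length, from 109 bases for ATG16L1 to 6177 for ATG2B, so levels of different genes compare only roughly. Per kilobase of that length, GABARAP stood highest of the 5 genes in footprints at 0 h, with a mean of 603 CPM per kb, followed by GABARAPL2 with 427, GABARAPL1 with 102, MAP1LC3B with 66.4 and MAP1LC3A with 14.7. At 15 h GABARAP and GABARAPL2 were still highest, with 473 and 232 CPM per kb. GABARAPL1 had moved below MAP1LC3B, with 15.9 against 39.1 CPM per kb.

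All 3 cargo receptors were lower at 15 h in both assays, and each reached that level by its own course. Of all genes, 25.4% were lower at 15 h in RNA and 39.6% in footprints. SQSTM1 (ENSG00000161011, chr5:179806393-179838078), the receptor p62 for ubiquitinated cargo, had 624, 739, 787 and 689 RNA CPM at 0 h, 486, 701, 500.4 and 503 at 5 h, 162, 276, 297 and 194 at 10 h and 197, 193, 205 and 169.8 at 15 h. Its footprints were 707, 711, 766 and 689 CPM at 0 h, 506, 407, 506 and 581 at 5 h, 257, 239, 227 and 249.2 at 10 h and 257, 244, 256 and 227 at 15 h. The main drop lay between 5 and 10 h, where no libraries overlapped in either assay. That step was -1.25 ± 0.17 in RNA (adjusted p = 7.16e-06) and -1.04 ± 0.07 in footprints (adjusted p = 1.84e-13). At 15 h against 0 h, SQSTM1 was 3.71-fold lower in RNA and 2.92-fold lower in footprints (adjusted p = 8.78e-09 and 7.49e-18).

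NBR1, another ubiquitin-binding receptor, stood at its lower level by 5 h. It averaged 153 ± 10.4 footprint CPM at 5 h, 146 ± 5.25 at 10 h and 149.8 ± 8.70 at 15 h, against 361 ± 5.53 at 0 h (SD, n = 4 each). The 5 h change was -1.23 ± 0.05 (adjusted p = 6.95e-23) and the step from 5 to 10 h was -0.07 ± 0.05, which was not called (adjusted p = 0.231). NBR1 RNA fell too, with -0.95 ± 0.13 at 5 h (adjusted p = 4.38e-06) and -1.05 ± 0.13 at 15 h (adjusted p = 6.40e-07).

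OPTN, a receptor for damaged mitochondria and bacteria, first rose. Its footprints averaged (± SD, n = 4) 103 ± 2.90 CPM at 0 h, 146 ± 9.18 after 5 h, 80.8 ± 3.66 after 10 h and 62.8 ± 5.85 after 15 h, with changes against 0 h of 0.50 ± 0.06 at 5 h (adjusted p = 1.31e-09) and -0.70 ± 0.06 at 15 h (adjusted p = 6.17e-13). In RNA the 5 h value of 0.33 ± 0.13 was not called (adjusted p = 0.0574) and the 15 h fall of -0.77 ± 0.14 was (adjusted p = 7.66e-05).

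**Figure D3:**
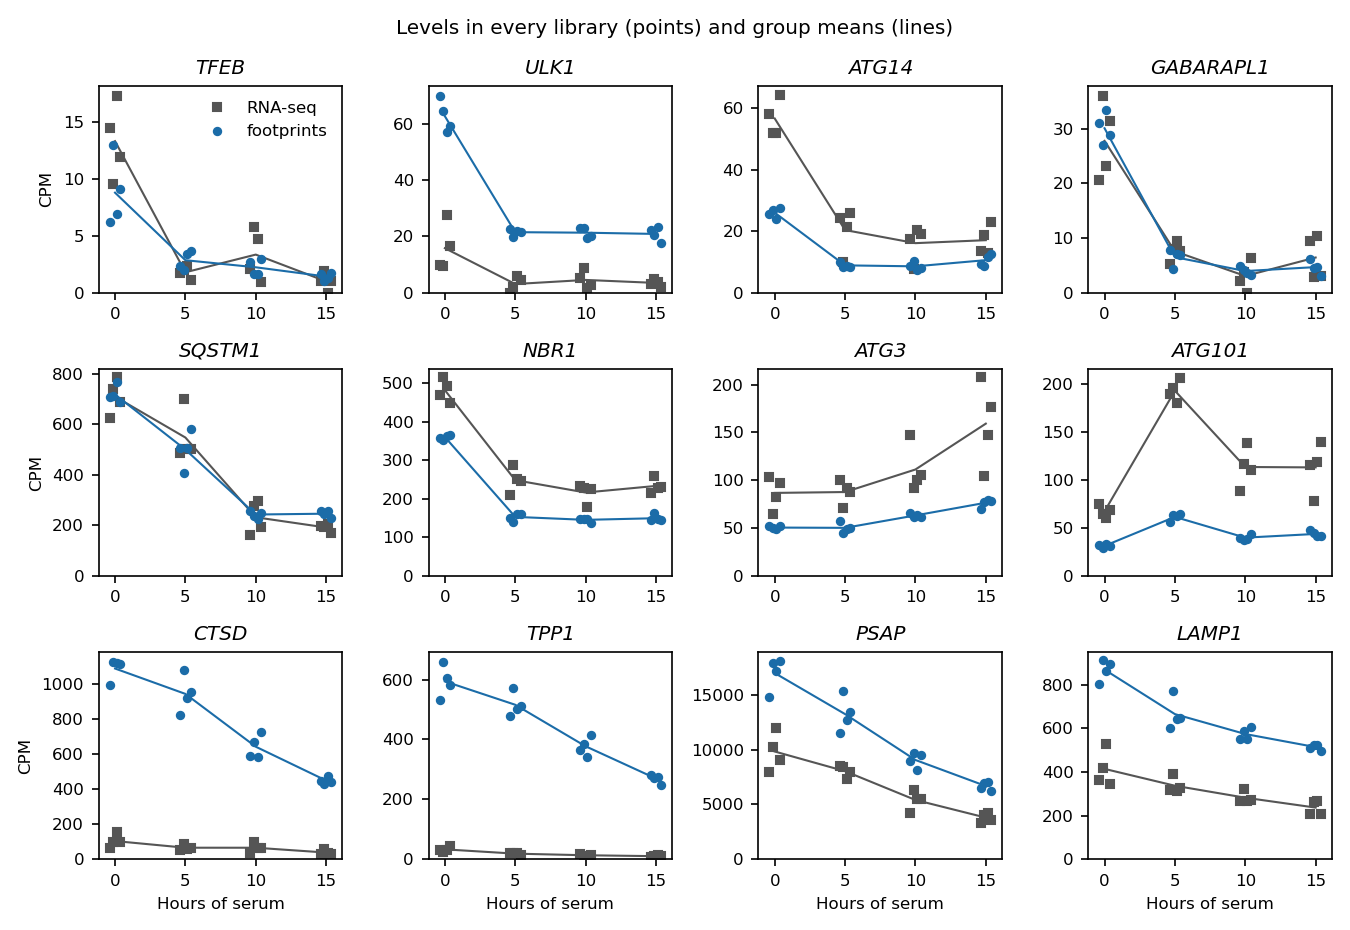
CPM of 12 members in every library by hours of serum, with RNA-seq as squares and footprints as circles, 4 libraries per time and lines through the means. CPM is scaled within each assay, so the heights of the 2 assays are not on 1 scale. TFEB, ULK1, ATG14, GABARAPL1 and NBR1 are low by 5 h, SQSTM1 drops between 5 and 10 h, CTSD, TPP1 and PSAP decline through 15 h, and ATG3 and ATG101 are higher at 15 h than at 0 h.

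TFEB (ENSG00000112561, chr6:41683978-41736223) was sparsely counted and fell early. Its footprints were 6.21, 12.96, 6.94 and 9.09 CPM at 0 h, 2.37, 1.99, 3.38 and 3.68 at 5 h, 2.66, 1.67, 1.62 and 2.98 at 10 h and 1.61, 0.986, 1.33 and 1.75 at 15 h, from 179, 83, 68 and 42 counts in all. No later library reached the lowest 0 h library. The change was -1.61 ± 0.22 at 5 h (adjusted p = 3.87e-08) and -2.67 ± 0.26 at 15 h (adjusted p = 3.74e-12), or 6.37-fold lower at 15 h. TFEB RNA was below the filter, with 41 counts at 0 h, 6 after 5 h, 12 after 10 h and 4 after 15 h over 4 libraries each. Fitted with no filter, it was -3.37 ± 0.62 at 15 h (adjusted p = 5.41e-06).

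TFE3, the related factor, was called lower in footprints at 10 h and 15 h and not at 5 h. Its footprints were 67.2, 66.3, 62.7 and 67.2 CPM at 0 h, 65.4, 61.6, 56.8 and 66.7 at 5 h, 48.2, 39.6, 43.8 and 49.2 at 10 h and 42.1, 38.6, 40.96 and 36.1 at 15 h. The 0 h and 5 h libraries overlapped, and those at 10 h and 15 h were below both (-0.74 ± 0.07 at 15 h, adjusted p = 6.51e-12). TFE3 RNA was 26.3, 35.5, 36.1 and 29.2 CPM at 15 h and 26.6, 55.1, 69.3 and 38.9 CPM at 0 h, overlapping groups whose difference of -0.58 ± 0.31 was not called (adjusted p = 0.123), but was with replicate number as a block (adjusted p = 0.0271).

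LAMP1 and LAMP2, the abundant glycoproteins of the lysosomal membrane, both fell. LAMP1 had 806, 914, 864 and 896 footprint CPM at 0 h, 602, 771, 641 and 650.1 at 5 h, 553, 588, 552 and 605 at 10 h and 510.0, 526, 523 and 499 at 15 h. LAMP2 had 614, 707, 627 and 702 footprint CPM at 0 h, 446, 542, 459 and 496 at 5 h, 429, 434, 381 and 428 at 10 h and 409, 438, 453 and 401 at 15 h. For both, every library after serum was below every 0 h library. At 15 h LAMP1 was -0.76 ± 0.06 in footprints and -0.81 ± 0.15 in RNA (adjusted p = 5.73e-15 and 1.07e-04), and LAMP2 was -0.64 ± 0.06 and -0.88 ± 0.13 (adjusted p = 2.57e-12 and 7.11e-06).

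In RNA, LAMP1 was 207, 264, 267 and 208 CPM at 15 h and 361, 419, 529.9 and 347 CPM at 0 h, and LAMP2 was 209, 216, 221 and 278 CPM at 15 h and 454, 403, 407 and 436 CPM at 0 h. Neither pair of groups overlapped. MCOLN1, the calcium-releasing channel TRPML1 of lysosomes, dipped in footprints at 5 h and then returned. Its means (± SD, n = 4) were 14.8 ± 0.966 CPM at 0 h, 8.83 ± 1.19 after 5 h, 16.1 ± 2.998 after 10 h and 16.7 ± 0.958 after 15 h, with -0.74 ± 0.14 at 5 h (adjusted p = 9.71e-06), 0.86 ± 0.13 from 5 to 10 h (adjusted p = 1.63e-07) and 0.19 ± 0.12 at 15 h, which was not called (adjusted p = 0.16).

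All 8 lysosomal hydrolases measured here were lower in footprints at 15 h, and 7 of the 8 were lower in RNA. At that time 79.7% of all genes were called in footprints (39.6% lower) and 50.9% in RNA (25.4% lower). CTSD (ENSG00000117984, chr11:1752755-1763927), the main aspartic protease of lysosomes, had 998, 1127, 1120.1 and 1115 footprint CPM at 0 h, 823, 1081, 919 and 955 at 5 h, 590.0, 668, 586 and 727 at 10 h and 449, 431, 474 and 443 at 15 h. The 0 h and 5 h groups overlapped, the 10 h libraries were below both and the 15 h libraries below those. The steps were -0.21 ± 0.07 at 5 h against 0 h, -0.56 ± 0.07 at 10 h against 5 h and -0.52 ± 0.07 at 15 h against 10 h (adjusted p = 0.00819, 4.16e-08 and 6.08e-07). CTSD RNA was 60.6, 97.4, 157 and 97.2 CPM at 0 h, 53.5, 85.2, 55.3 and 65.99 at 5 h, 35.8, 98.02, 60.9 and 64.9 at 10 h and 26.3, 58.9, 36.1 and 28.1 at 15 h, and the 5 h and 10 h groups overlapped the 0 h group while the 15 h group did not. It was called at 15 h (-1.44 ± 0.31, adjusted p = 7.65e-04).

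TPP1 (ENSG00000166340, chr11:6612768-6619422), a peptidase that removes tripeptides from protein ends, had 532, 658, 604 and 582 footprint CPM at 0 h, 479.6, 573, 500.3 and 510.1 at 5 h, 366, 384, 342 and 416 at 10 h and 282, 270.1, 275 and 249.2 at 15 h. Its RNA was 31.5, 23.3, 30.3 and 44.8 CPM at 0 h, 20.7, 19.1, 18.8 and 14.1 at 5 h, 17.4, 11.5, 7.81 and 14.4 at 10 h and 7.35, 9.34, 12.9 and 9.37 at 15 h. The 15 h libraries were below the 0 h libraries in both. The change at 15 h was -1.72 ± 0.28 in RNA (adjusted p = 3.16e-05) and -1.14 ± 0.06 in footprints (adjusted p = 2.00e-18). The RNA call at 5 h (-0.83 ± 0.26, adjusted p = 0.017) was lost without the replicate 4 libraries (adjusted p = 0.193).

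The other hydrolases fell in footprints at 15 h, with log2 changes between -0.33 for CTSL and -1.03 for GAA, the acid glucosidase that degrades lysosomal glycogen. CTSA (a carboxypeptidase that also protects other enzymes), CTSB (a cysteine protease) and HEXA (a subunit of hexosaminidase, which degrades gangliosides) stood at -0.94 ± 0.07, -0.94 ± 0.07 and -0.87 ± 0.07, and CTSZ, a carboxypeptidase of the cathepsin family, at -0.53 ± 0.06. The largest adjusted p among these 6 genes was 6.30e-06. In RNA, CTSA, CTSB and HEXA were called at 15 h with -1.13 ± 0.20, -0.996 ± 0.17 and -0.95 ± 0.13 (largest adjusted p = 9.97e-05). GAA (-1.15 ± 0.43, adjusted p = 0.0295) and CTSZ (-0.46 ± 0.13, adjusted p = 0.0043) were called in RNA but not without the replicate 3 or replicate 4 libraries (adjusted p = 0.0687 and 0.186 for GAA, 0.0669 and 0.089 for CTSZ).

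CTSL, a cysteine protease, was the exception at 5 h. Its footprints averaged (± SD, n = 4) 149 ± 6.42 CPM at 0 h, 208 ± 20.8 after 5 h, 146 ± 3.53 after 10 h and 118 ± 5.97 after 15 h, a rise of 0.48 ± 0.06 at 5 h (adjusted p = 2.15e-09) before the later fall. CTSL RNA was 0.60 ± 0.18 at 5 h (adjusted p = 0.0138), a call lost without the replicate 3 (adjusted p = 0.102) or replicate 4 libraries (0.132), and -0.24 ± 0.18 at 15 h, which was not called (adjusted p = 0.298).

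PSAP (ENSG00000197746, chr10:71816298-71851251) took the most counts of any member in both assays. Its footprints were 14816, 17929, 17168 and 18160.5 CPM at 0 h, 11535, 15395, 12703 and 13419 at 5 h, 8978, 9675, 8125 and 9482 at 10 h and 6533, 6956, 7014 and 6229 at 15 h. Its RNA was 7964, 10293, 12005 and 9095 CPM at 0 h, 8484, 8411, 7333 and 7932 at 5 h, 4259, 6299, 5542 and 5529 at 10 h and 3335, 3993, 4228 and 3615 at 15 h. The 0 h and 5 h groups overlapped in both assays, and each of the 10 h and 15 h groups was below the one before it. At 15 h PSAP was 2.59-fold lower in RNA and 2.55-fold lower in footprints (adjusted p = 2.43e-08 and 2.49e-16).

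GRN, the precursor of granulins with a role in lysosomal function, had 1269.8, 1505, 1429 and 1394 footprint CPM at 0 h, 979, 1226, 1079 and 1086 at 5 h, 729.8, 812, 738 and 901 at 10 h and 672, 601, 650.3 and 567 at 15 h, and no neighbouring groups overlapped. Its footprint change at 15 h was -1.17 ± 0.07 (adjusted p = 2.40e-15). GRN RNA was uneven, with 36.8, 121, 40.02 and 33.3 CPM at 15 h and 88.4, 167, 284 and 103 CPM at 0 h, and the replicate 2 library at 15 h stood apart and overlapped the 0 h group. The RNA call (-1.44 ± 0.49, adjusted p = 0.0219) was lost without the replicate 3 (adjusted p = 0.176) or replicate 1 libraries (0.0611).

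Autophagy machinery and hydrolases were next set side by side, step by step. In footprints at 5 h against 0 h, 12 of 23 machinery genes fell and 4 rose (median -0.22), and 7 of 8 hydrolases fell and 1 rose (-0.24), beside an all-gene median of -0.07, 75.7% of all genes called and 40.5% lower. The share of machinery genes called, 16 of 23, was near that background. At 10 h against 5 h, where 61.7% of all genes were called and 30.7% were lower, 12 machinery genes fell and 2 rose (median -0.27), and all 8 hydrolases fell (-0.44). At 15 h against 10 h, where 41.0% were called and 20.2% were lower, 4 machinery genes fell and 5 rose (median 0.04), while all 8 hydrolases fell again (-0.30). The machinery genes that rose in that last step were RB1CC1, ATG2A, ATG3, ATG7 and ATG12. The ATG12 call was lost without the replicate 1, 3 or 4 libraries (adjusted p = 0.0976, 0.113 and 0.137) and in DESeq2 (0.0639). The ATG2A call was lost without the replicate 1 libraries (0.0879), where 3 machinery genes rose and 3 fell. Without the replicate 4 libraries the fall of 4 hydrolases was still called in that step (CTSD, CTSL, TPP1 and HEXA), that of CTSA, CTSB, CTSZ and GAA was not, and the hydrolase median was -0.26. With them left out, 3 machinery genes fell and 5 rose, ATG9A in place of ATG12.

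Within the machinery the spread was wide at each step. The 5 h footprint changes ran from -2.19 for GABARAPL1 to 0.97 for ATG101, whereas the hydrolases other than CTSL lay between -0.38 for CTSB and -0.21 for TPP1. In the whole course at 15 h against 0 h, 17 machinery genes fell and 5 rose in footprints with a median of -0.60, and the 8 hydrolases had a median of -0.94. In RNA, 11 of 19 machinery genes fell and 2 rose with a median of -0.68, and 7 of 8 hydrolases fell with a median of -1.06. These medians are descriptions of small lists, and their difference was not tested.

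In RNA the single steps were less well resolved, and the order of the 2 groups was not that of footprints throughout. At 5 h against 0 h, 5 of 19 machinery genes fell and 1 rose (median -0.10), and 1 of 8 hydrolases fell and 1 rose (-0.39). Of all genes, 35.9% were called there (16.7% lower), and neither group had a larger share called. At 10 h against 5 h, 5 machinery genes and 2 hydrolases fell, and the machinery median was the lower one (-0.33, against -0.23), and at 10 h against 0 h the medians were -0.59 and -0.56. At 15 h against 10 h the medians were -0.03 and -0.40, with no gene of either group called. With replicate number as a block, 5 of 8 hydrolases were lower there, and of 19 machinery genes 1 was lower and 1 higher. The hydrolase calls in these steps move with single replicates: without the replicate 4 libraries none was called at 5 h against 0 h or at 10 h against 5 h, and the machinery had 3 lower in each. Over all members at 10 h against 5 h, where 19.7% of all genes were called (9.56% lower and 10.1% higher), 8 of 32 members fell and none rose: ATG101, GABARAP, GABARAPL2, SQSTM1, OPTN, CTSL, HEXA and PSAP. The count was 3 without the replicate 4 libraries. The GABARAPL2 call was lost when any 1 replicate number was left out (adjusted p = 0.121 to 0.279) and in DESeq2 (0.107). CTSL was not called without the replicate 1, 3 or 4 libraries (0.0884, 0.117 and 0.27). GABARAP was not called without replicate 2 or 4 (0.182 and 0.116) or with only these times (0.0517), nor HEXA and PSAP without replicate 4 (0.0705 and 0.0568). At 15 h against 10 h, where 5.91% of all genes were called (2.11% lower and 3.81% higher), PSAP alone fell, with -0.51 ± 0.13 (adjusted p = 0.0207), and that call was lost without the replicate 2, 3 or 4 libraries (adjusted p = 0.0876, 0.0867 and 0.274) and with only the libraries of these times in the fit (0.0675). The 1 member called was then another gene without replicate 2, ATG3, which was higher (0.62, adjusted p = 0.0476), and with only these times, RB1CC1, which was higher (1.06, adjusted p = 0.0153). In that step 9 members had an unadjusted p under 0.05, and DESeq2 called 2, PSAP lower and RB1CC1 higher.

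**Figure D4:**
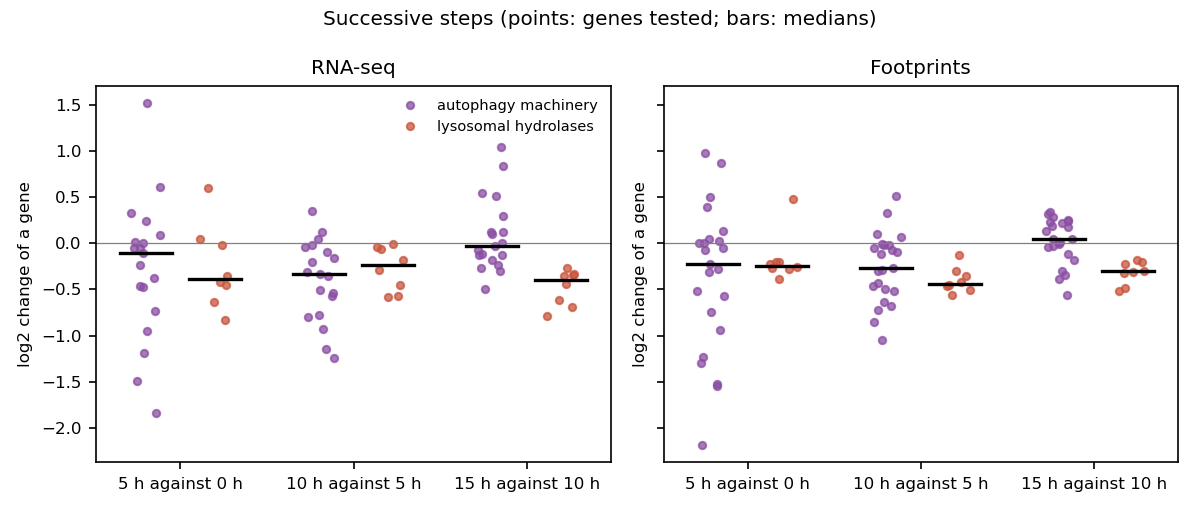
log2 change of each gene in the 3 successive steps of the time course, for RNA-seq (left) and footprints (right), with autophagy machinery and lysosomal hydrolases side by side. Points are genes tested and bars are medians. In footprints the hydrolases stay below 0 in the last 2 steps, with medians of -0.44 and -0.30, while the machinery median is 0.04 in the last step.

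Translational efficiency (TE), the footprint change minus the RNA change of a gene, was called for few members. At 15 h against 0 h, GABARAP alone of 32 members was called, with a TE 0.65 ± 0.14 higher on the log2 scale (adjusted p = 0.00172), in a comparison where 11% of all genes were called (7.03% higher and 3.94% lower). This is the same gene whose RNA fell by more than its footprints, and the call was lost without the replicate 3 libraries (adjusted p = 0.0538). At 5 h ATG101 alone was called, with a TE change of -0.59 ± 0.17 (adjusted p = 0.0321) where 6.47% of all genes were called (4.13% higher and 2.34% lower). That call was lost without the replicate 1, 3 or 4 libraries (adjusted p = 0.0739, 0.144 and 0.121).

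With edgeR, no member had a called TE change at 10 h against 0 h (7.23% of all genes called, 5.44% higher and 1.80% lower), 10 h against 5 h (0.652%, 0.595% higher and 0.0572% lower) or 15 h against 10 h (0%). At an unadjusted p under 0.05 there were 5, 2 and 1 members in these comparisons, and DESeq2 called 2, 0 and 0. The median TE change at 15 h was -0.06 over 19 machinery genes and -0.03 over 8 hydrolases, against -0.04 over all genes. RNA depth limits this comparison: the standard errors of the TE changes at 15 h ran up to 0.49 among the members, for ATG16L1.

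**Figure D5:**
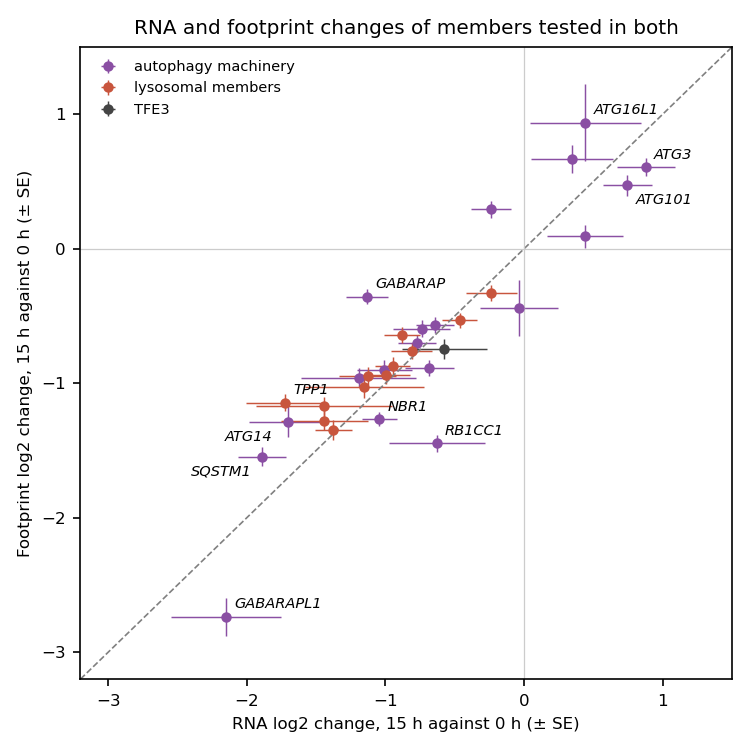
log2 change at 15 h against 0 h in footprints (vertical) against RNA-seq (horizontal) for the 32 members tested in both, with standard errors in both directions. The dashed line marks equal change. GABARAP lies above the line with -0.36 in footprints and -1.13 in RNA, and most other members lie near it.

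The standing ratio of footprints to RNA differed between the groups of genes. At 0 h the log2 ratio of footprint CPM to RNA CPM had a median of 1.58 over the 8 hydrolases and -0.38 over the 19 machinery genes, against -0.24 over 8736 genes. TPP1 stood at 4.31 ± 0.14 (percentile 99.95 among these genes), CTSD at 3.51 ± 0.21 (percentile 99.7), GRN at 3.22 ± 0.33 (percentile 99.6), GAA at 2.58 ± 0.21 (percentile 98.6) and CTSA at 2.02 ± 0.14 (percentile 96.7). Of the 12 lysosomal members, 7 were above the 90th percentile at 0 h, and of the machinery 0 of 19. CTSB and LAMP1 were only just above it, at percentiles 90.01 and 90.17. At 5, 10 and 15 h, 5 of the 12 lysosomal members were above it each time, and 1, 0 and 2 of the 19 machinery genes. CTSL (-0.15 ± 0.14), CTSZ (0.10 ± 0.09) and HEXA (0.14 ± 0.10) were nearer the middle at 0 h. TPP1 had 99 RNA counts over the 4 libraries at 0 h, and the ratio compares different library types, so it is given without a test. At 15 h the hydrolase median was 1.57 and that of all genes -0.27.

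Promoter sequence was examined because TFEB and TFE3 bind the letters CACGTG, most often within TCACGTGA. RefSeq windows of 300 bases on GRCh38.p14, from 250 before to 50 after the start of a gene, were available for 36 of the 42 genes, BECN1, WIPI1 and NEU1 included. CACGTG and TCACGTGA read the same on both strands, and each TCACGTGA contains a CACGTG. At least 1 CACGTG was in the windows of 7 of 11 lysosomal genes (63.6%) and of 2 of 23 machinery genes (8.70%), against 8.77% of 27305 genes. TCACGTGA was in 5 of 11 lysosomal genes (45.5%) and 1 of 23 machinery genes (4.35%), against 1.18% of all genes. These 2 motifs were chosen for factors already known to act on lysosomal genes. Their higher share in that list is thus no independent evidence, and it was not tested. The lysosomal genes with CACGTG were LAMP1, MCOLN1, CLN3, CTSA, CTSD, GAA and NEU1, and the machinery genes were ATG3 and ATG14. GTAAACA, the core bound by FOXO factors, searched on both strands, was in 1 of 36 member genes (CTSL), against 4.19% of all genes.

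The 100 bases before the start follow for the members with the largest RNA falls (GABARAPL1, SQSTM1, TPP1), for CTSD and GRN, and for LAMP1, MCOLN1, GAA and CTSA, which were added after the motifs were seen. CACGTG is in capitals, sequences run 5′ to 3′ along the strand of the gene, and places are on GRCh38.p14.
LAMP1 (chr13:113297139-113297238, + strand): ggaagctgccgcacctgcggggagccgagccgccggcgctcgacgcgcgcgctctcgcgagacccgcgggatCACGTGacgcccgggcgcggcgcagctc
MCOLN1 (chr19:7522524-7522623, + strand): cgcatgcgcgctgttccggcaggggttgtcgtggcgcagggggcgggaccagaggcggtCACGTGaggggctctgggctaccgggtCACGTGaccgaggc
GAA (chr17:80101481-80101580, + strand): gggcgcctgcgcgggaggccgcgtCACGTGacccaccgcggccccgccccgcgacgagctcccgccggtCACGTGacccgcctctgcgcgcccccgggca
CTSA (chr20:45891235-45891334, + strand): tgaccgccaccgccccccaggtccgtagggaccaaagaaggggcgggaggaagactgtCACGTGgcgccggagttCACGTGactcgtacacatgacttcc
CTSD (chr11:1763928-1764027, - strand): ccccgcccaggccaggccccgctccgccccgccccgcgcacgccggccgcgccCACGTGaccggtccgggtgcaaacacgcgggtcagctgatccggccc
TPP1 (chr11:6619423-6619522, - strand): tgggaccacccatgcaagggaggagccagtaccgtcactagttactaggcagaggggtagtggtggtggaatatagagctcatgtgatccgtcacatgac
GRN (chr17:44345202-44345301, + strand): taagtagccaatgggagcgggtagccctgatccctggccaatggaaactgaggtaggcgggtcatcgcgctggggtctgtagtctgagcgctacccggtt
GABARAPL1 (chr12:10212777-10212876, + strand): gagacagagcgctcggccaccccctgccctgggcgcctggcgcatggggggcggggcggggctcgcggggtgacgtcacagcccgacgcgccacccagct
SQSTM1 (chr5:179806293-179806392, + strand): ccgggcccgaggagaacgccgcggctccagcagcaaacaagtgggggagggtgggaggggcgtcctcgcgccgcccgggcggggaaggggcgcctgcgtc

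MCOLN1, GAA and CTSA each show 2 copies of CACGTG in this stretch, and LAMP1 and CTSD show 1. The whole window of LAMP1 held more copies, beginning 192, 176, 159 and 142 bases before the start of the gene. Another LAMP1 copy begins 1 base before the start and is cut by the end of the stretch. GABARAPL1, SQSTM1, TPP1 and GRN have none there, and SQSTM1 has 3 listed windows of which the first is printed. Genes with the letters did not move alike: footprints at 15 h were -1.28 for CTSD and -1.03 for GAA, but 0.19 for MCOLN1 and 0.61 for ATG3. A match in a window is a description of the sequence and says nothing of binding in these cells.

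Other genes of the same pathways, from lists that do not overlap the members, were counted at 15 h against 0 h, where 50.9% of all genes were called in RNA (25.4% lower) and 79.7% in footprints (39.6% lower). Of 29 other lysosomal enzymes tested in RNA, 18 fell and 2 rose (median -0.66), and in footprints 27 of 34 fell and 4 rose (-0.68). The largest falls in RNA were those of CTSO, a cysteine protease, with -2.25 ± 0.39 and LIPA, the acid lipase that frees cholesterol from its esters, with -1.90 ± 0.15 (adjusted p = 6.58e-05 and 6.93e-10). CTSC, which activates granule proteases, rose by 1.24 ± 0.15 in RNA and 1.33 ± 0.06 in footprints (adjusted p = 4.07e-07 and 7.97e-23), and ARSB, a sulfatase, by 0.72 ± 0.29 in RNA (adjusted p = 0.0417). The ARSB call was lost without the replicate 2 (adjusted p = 0.174) or replicate 4 libraries (0.126) and in DESeq2 (0.0681).

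Of 22 other lysosomal membrane and trafficking genes, 13 fell and 1 rose in RNA (median -0.57), and 9 fell and 0 rose without the replicate 1 or the replicate 4 libraries. CTNS, the cystine exporter, was -1.89 ± 0.54 and PLEKHM1, a tether for fusion with lysosomes, -1.24 ± 0.33 (adjusted p = 0.00646 and 0.0035), while M6PR, a receptor that sorts new enzymes to lysosomes, rose by 0.34 ± 0.13 (adjusted p = 0.0401). The CTNS call was lost without the replicate 4 libraries (adjusted p = 0.0903), and the M6PR call without the replicate 1, 3 or 4 libraries (0.0508, 0.0969 and 0.108). Of 16 subunits of the V-ATPase, the pump that acidifies lysosomes, 6 fell and 3 rose in RNA (median -0.23), a share called that is close to that of all genes. ATP6V0A1 and ATP6AP1 fell, with -1.33 ± 0.26 and -0.92 ± 0.23 (adjusted p = 1.93e-04 and 0.00214), and ATP6V1D and ATP6V0A2 rose by 1.19 ± 0.21 and 1.11 ± 0.17 (adjusted p = 6.95e-05 and 9.64e-06).

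Of 22 other autophagy genes, 7 fell and 4 rose in RNA (median -0.16), 11 in all, a share close to that of all genes, against 7 without the replicate 1 or 3 libraries and 6 without the replicate 4 libraries. AMBRA1, an organiser of the initiation complexes, fell, with -1.56 ± 0.22, as did TECPR1, which acts at fusion with lysosomes, with -1.35 ± 0.24 (adjusted p = 4.20e-06 and 7.40e-05), while RUBCN, an inhibitor of autophagosome maturation, rose by 1.07 ± 0.41 and the ATG8 protease ATG4A by 0.80 ± 0.28 (adjusted p = 0.0352 and 0.0235). The RUBCN call was lost without the replicate 1, 2 or 3 libraries (adjusted p = 0.0715, 0.0944 and 0.0551) and in DESeq2 (0.0513), and the ATG4A call without the replicate 1 (0.0505) or replicate 3 libraries (0.0974). Of 14 genes that anchor mTORC1 at the lysosome or act on TFEB and TFE3, 7 fell and 1 rose in RNA (median -0.36), 8 in all, against 5 without the replicate 1 libraries and 4 without those of replicate 3 or 4. RRAGB, a Rag GTPase, fell, with -1.90 ± 0.40, as did LAMTOR4, part of the anchor of the Rag GTPases, with -0.99 ± 0.16 (adjusted p = 4.70e-04 and 2.46e-05), while FNIP2, a partner of folliculin, rose by 0.80 ± 0.26 (adjusted p = 0.0128, or 0.0563 without the replicate 4 libraries).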

How the data were processed

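The authors deposited raw counts of reads per gene for 32 libraries, made with STAR 2.5.4a and featureCounts 1.5.1 on GRCh38, per the submitters' processing notes. The gene annotation, the strand setting and the treatment of molecular identifiers and shared reads are not given in the sources used here. All 32 columns were matched to samples, and 0 were left out.

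RNA-seq and footprint counts were fitted separately (16 libraries each) with edgeR 4.0.16 (R 4.3.3, limma 3.58.1): TMM scaling, filterByExpr by time, robust quasi-likelihood fit, Benjamini-Hochberg over 8775 genes in RNA and 10959 in footprints. TE came from 1 fit of all 32 libraries with an interaction (8736 genes), where shared cultures could not be modelled. A gene was called at an adjusted p under 0.05, standard errors are those of the log2 change, and CPM uses TMM-scaled totals. The RNA fit at 15 h against 0 h was tested on simulated data. A limit for a count of 0 is 3 counts, and covers counting error only. Libraries held at least 595851 counts in RNA and 2851423 in footprints. RNA gave the larger common biological coefficient of variation (0.185, against 0.0547 in footprints), so its errors are wider.

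Alternatives were DESeq2 1.42.0, RLE size factors, no filter, each replicate number left out, only the times compared, and replicate number as a block. Same-numbered libraries deviated together (every correlation over 0.1) only in RNA at 15 h and 0 h (0.171 to 0.478). Libraries of different numbers ran from -0.534 to 0.522 in that comparison. Over all times, 19 of 24 same-numbered RNA correlations were over 0.1, against 17 of 72 for different numbers. Deviations from a group mean cancel within the group, which spreads the correlations, so these ranges cannot decide whether the numbers mark pairs. In RNA at 15 h against 0 h the block moved the calls from 24 to 26 members.

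The members and the other gene lists were chosen with earlier results of these data known. Values by library are given for the member of each role with the largest RNA and footprint change at 15 h, the ATG8 family, the factors TFEB and TFE3, and the members called for TE. Other pathway genes named are the 2 largest called rises and falls of each list in RNA at 15 h. Promoter windows are from RefSeq (GRCh38.p14). Gene places are from RefSeq on the same build and cover the whole gene.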

Additional observations from a re-analysis of the deposited data

Results flagged for a closer look

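Values of single libraries that stood far from the other 3 of their group, by Dixon's criterion at the 95% level, were found in 18 of 280 groups (6.43%), where chance gives about 5%. No explanation was tested.

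In RNA, ATG12 was lowest in the replicate 2 library at 15 h, with 17.8 CPM, where the other libraries had 34.9 to 37.5 CPM. CTSA was highest in the replicate 2 library at 15 h, with 59.8 CPM, where the other libraries had 37.8 to 41.3 CPM. GABARAP was highest in the replicate 4 library at 15 h, with 67.7 CPM, where the other libraries had 57.0 to 58.8 CPM. GRN was highest in the replicate 2 library at 15 h, with 121 CPM, where the other libraries had 33.3 to 40.0 CPM. LAMP1 was highest in the replicate 2 library at 10 h, with 324 CPM, where the other libraries had 265 to 272 CPM. LAMP2 was highest in the replicate 4 library at 15 h, with 278 CPM, where the other libraries had 209 to 221 CPM. NBR1 was lowest in the replicate 3 library at 10 h, with 178 CPM, where the other libraries had 226 to 234 CPM. OPTN was highest in the replicate 1 library at 10 h, with 157 CPM, where the other libraries had 136 to 137 CPM. SQSTM1 was highest in the replicate 2 library at 5 h, with 701 CPM, where the other libraries had 486 to 503 CPM.

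In footprints, ATG2B was lowest in the replicate 1 library at 15 h, with 46.7 CPM, where the other libraries had 53.1 to 54.0 CPM. ATG5 was highest in the replicate 3 library at 10 h, with 36.0 CPM, where the other libraries had 32.3 to 32.6 CPM. CTSD was lowest in the replicate 1 library at 0 h, with 998 CPM, where the other libraries had 1115 to 1127 CPM. CTSL was lowest in the replicate 1 library at 15 h, with 109 CPM, where the other libraries had 120.2 to 122 CPM. LAMP2 was lowest in the replicate 3 library at 10 h, with 381 CPM, where the other libraries had 428 to 434 CPM. MCOLN1 was highest in the replicate 2 library at 5 h, with 10.6 CPM, where the other libraries had 8.03 to 8.37 CPM. NBR1 was lowest in the replicate 4 library at 10 h, with 138 CPM, where the other libraries had 148 to 149 CPM. NBR1 was highest in the replicate 2 library at 15 h, with 163 CPM, where the other libraries had 144 to 147 CPM. RB1CC1 was highest in the replicate 2 library at 10 h, with 45.3 CPM, where the other libraries had 38.2 to 39.1 CPM.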

How the results depend on the processing

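No called value of a single member changed sign under any alternative tried. The 1 member called in RNA at 15 h against 10 h was PSAP, lower, but ATG3, higher, without replicate 2 and RB1CC1, higher, with only the times compared. Of the values of single members under all alternatives, 4424 stayed on their side of the threshold, 112 were no longer called and 54 became called. With RLE size factors or only the times compared, no count of called members moved by more than 1.5 times. DESeq2 called 2 members in RNA at 15 h against 10 h, in place of 1, and called 2, 2 and 3 members for TE at 5, 10 and 15 h against 0 h, in place of 1, 0 and 1. With no filter on low counts, no member was called for TE at 5 h (0), the machinery median in RNA at 15 h was -0.58 and the hydrolase median in footprints at 15 h was -0.88.

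With replicate number as a block, 17 members were called in RNA at 5 h against 0 h (3 higher and 14 lower, in place of 9) and 8 at 15 h against 10 h (in place of 1), and the TE counts at 5, 10 and 15 h were 3, 1 and 4. The labels do not say what a replicate number marks. In RNA over all times, same-numbered libraries had a median correlation of 0.255 (-0.364 to 0.674), against -0.109 (-0.637 to 0.619) for different numbers. Correlations over 0.1 numbered 19 of 24 for the same number and 17 of 72 for different numbers. Deviations from a group mean cancel within the group, so overlap of these ranges cannot decide whether libraries are paired. With pairing undecided, the gains are not read as a paired effect. The block moved no other count of calls by more than 1.5 times.

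Leaving out each replicate number in turn gave 4 to 11 called members in RNA at 5 h, 15 to 20 at 10 h and 21 to 23 at 15 h against 0 h, 3 to 6 at 10 h against 5 h and 0 to 1 at 15 h against 10 h. In footprints it gave 29 to 31, 30 to 32 and 34 to 36 against 0 h, 26 to 28 at 10 h against 5 h and 14 to 21 at 15 h against 10 h. For TE it gave 0 to 1 at 5 h and 0 to 1 at 15 h. The medians at 15 h lay between -0.78 and -0.58 (RNA) and -0.73 and -0.60 (footprints) for the machinery, between -1.07 and -0.95 and -0.99 and -0.90 for the hydrolases, and for TE between -0.15 and 0.026 and -0.19 and 0.16, so the TE medians changed sign (without replicate 2 for both groups, and without replicate 4 for the hydrolases). The causes of these shifts were not tested.

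Depth limits the RNA results: 6 members with counts in footprints were below the RNA filter, and single steps and TE changes rest on wide RNA errors.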
